A study of Mus musculus with 14 samples.

Results

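RNA-seq counts were compared between 2 sets of placode-enriched libraries from embryonic mouse dorsal skin: 3 pools whose titles carry the code 27-7 (27-7-2, 27-7-3 and 27-7-4) and 4 pools with other codes (11-5-2, 17-5, 18-5 and 1-6-3). These 7 libraries are the MAdCAM-1 positive ones of a series of 14. Membership was taken from the sample titles alone. All embryos were wild type, of the strain C57BL/6JOlaHsd and at E14.5. Each pool joined the epithelial sheets of 3 to 4 littermates, and live cells were sorted with an antibody to MAdCAM-1, a cell adhesion molecule displayed by hair placode cells. The MAdCAM-1 negative cells of the same pools, called interfollicular epithelium (IFE), form the other 7 libraries and serve here only as a comparison. The labels do not say what the title code stands for. A litter, a day, a batch or a degree of embryo maturity that the 3 pools may share cannot be told apart, and p-values measure only the spread between these pools.

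A hair placode is a local thickening of embryonic epidermis from which a follicle grows. Wnt/beta-catenin and ectodysplasin (Eda) signals set up the placode, and its cells then send Shh and other ligands to the dermal cells below, which condense and signal back. The surrounding epidermis meanwhile stratifies, and its suprabasal cells switch from the basal keratins Krt5 and Krt14 to Krt1 and Krt10.

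The 7 placode-enriched libraries held 23.8 to 49.5 mega-counts (Mcounts, counts in units of 1e+06). Keratinocyte markers were abundant in all 7, with Krt14 between 1331 and 1653 and Trp63 between 1196 and 1384 CPM (counts scaled to the TMM-adjusted size of the library). Shh lay between 83.4 and 136 CPM here and between 1.11 and 3.09 CPM in the IFE libraries. A principal component analysis set 2 pools apart on its first axis (28.7% of the variance), 17-5 at one end and 27-7-2 at the other. Pool 17-5 also held 0 counts of the 4 Y-linked genes Uty, Kdm5d, Ddx3y and Eif2s3y and the highest level of Xist, the RNA of the inactive X chromosome (3719 CPM, against 885 to 2442 CPM in the other 6). Several genes below are therefore also given without 27-7-2, and without 17-5 the unadjusted counts below were 819 higher and 809 lower genes.

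No gene passed the adjusted threshold. Of 15819 genes tested, 0 differed at an adjusted p under 0.05 (0% of genes; edgeR quasi-likelihood test, smallest adjusted p = 0.363). At an unadjusted p under 0.05, 1039 genes were higher in the 27-7 pools (6.57%) and 861 lower (5.44%). Without 27-7-2 these counts were 420 and 507, without 11-5-2 533 and 456, without 18-5 652 and 498, and without 1-6-3 1579 and 1354. Without 27-7-4 these counts were 1286 and 1378, and without 27-7-3 708 and 647. Limma-voom called 0 genes as well. DESeq2 called 93 higher and 15 lower, after its own filter had left 13494 of the 15819 genes without an adjusted p. With that filter off it called 20 higher and 8 lower, and St8sia2, Shh and Egr1 had its smallest adjusted p-values.

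Because no gene passed, the genes below are described by their level in each pool, and those outside the fixed names were chosen after their values were seen. A gene is called non-overlapping when each of the 3 27-7 pools lies above, or each lies below, all 4 other pools. That held for 816 genes on the higher side (5.16%) and 648 on the lower side (4.1%). Each list count below is to be read beside these shares. The differences were small: among the 1000 non-overlapping genes that averaged 10 CPM or more over the 7 pools, all but 2 (Egr1 and Mir5125) differed by less than 2-fold, and the median absolute log2 fold change was 0.34. The pools formed a gradient rather than 2 tight sets. Among the 816 higher genes, 27-7-2 was the farthest from the other codes in 478 (58.6%) and 27-7-4 the nearest to them in 450 (55.1%), while 1-6-3 was the other pool closest to 27-7 in 457 (56%). Among the 648 lower genes the same pools took these places, in 405, 301 and 317 genes.

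Base composition moved with the difference. Across 9711 genes with a mean log2 CPM above 3, the log2 fold change correlated with the GC content of the transcript (Spearman 0.60 across genes that share the same 7 libraries, given as a description), while its correlation with transcript length was 0.05. The median log2 fold change was -0.22 among the genes of lowest GC content (30.8 to 43.7%) and 0.20 among those of highest (55.4 to 73.7%), with the genes cut into 5 equal bins. Non-overlapping higher genes made up 1.24% of the lowest bin and 8.24% of the highest, and non-overlapping lower genes 7.87% and 0.669%. The slope of each library's deviation per 10% of GC was 0.40 log2 units in 27-7-2, 0.12 in 1-6-3, 0.06 in 27-7-3 and -0.06 in 27-7-4, and lay between -0.22 and -0.11 in the 3 remaining pools. The slope thus did not follow the code strictly, since 1-6-3 leaned with 27-7-2 and 27-7-4 with the other codes. Many genes below are also given after each library was centred within 20 bins of GC content, a step chosen after seeing the data and called GC-centred. Centring left 823 non-overlapping higher genes (5.2%) and 787 lower ones (4.98%), and 519 of the 816 (63.6%) and 415 of the 648 (64%) were among them. It called 0 genes at an adjusted p under 0.05 (edgeR, smallest adjusted p = 0.173). The median GC content of the placode (52.0%), Wnt target (52.3%), matrix (53.03%) and guidance (54.2%) lists described below lay in the bin from 51.4 to 55.4%, in which 9.84% of genes were non-overlapping and higher. That of the G2 and M phase list (46.2%) lay in the bin from 43.7 to 47.6%, in which 7.31% were non-overlapping and lower. Whether GC content plays a part in any single result was not tested.

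**Figure D1:**
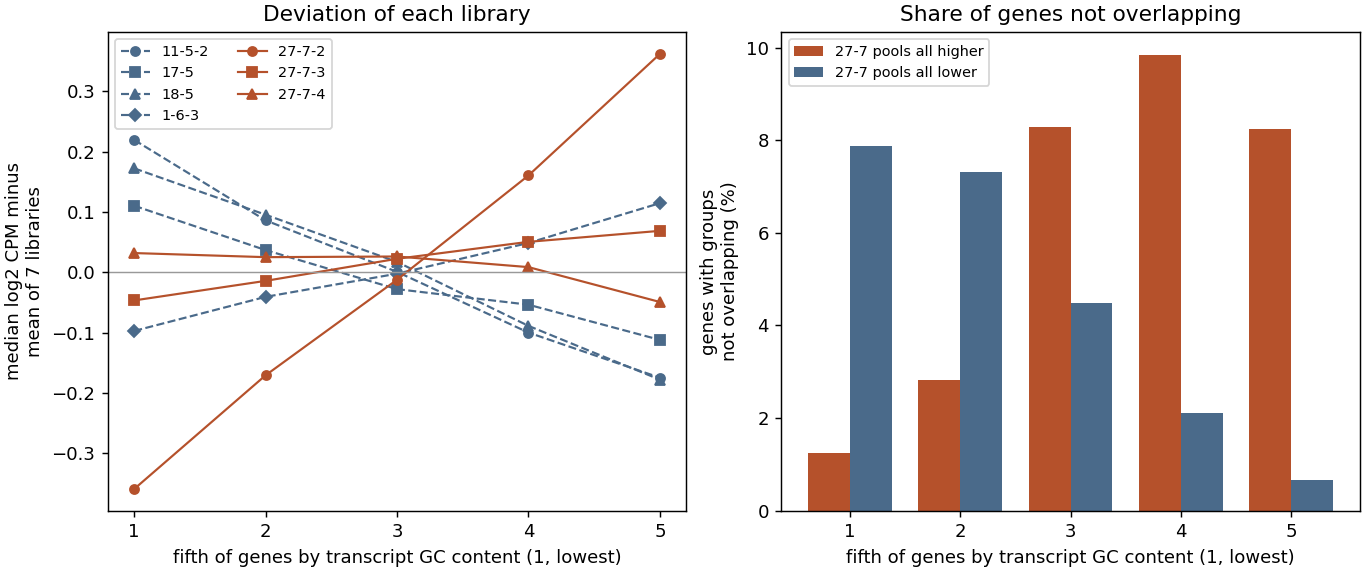
Left, median log2 CPM of each placode-enriched library minus the mean of the 7 libraries (y axis) in 5 equal bins of genes by transcript GC content (x axis); right, percent of genes in each bin with all 27-7 pools above or all below the other codes. Pool 27-7-2 climbs from -0.36 to 0.36, 1-6-3 climbs with it, and the higher genes gather at high GC content.

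Hair placode markers leaned to the higher side. Of 26 tested, 7 were non-overlapping and higher and 0 lower, or 7 and 1 once GC-centred. The median log2 fold change was 0.25 (0.24 GC-centred), beside 0.00 over all genes tested. Leaving out each pool in turn kept the median between 0.18 and 0.32. Their summed level was 3970 to 4416 CPM in the 27-7 pools and 3268 to 3689 CPM in the others, so these sums did not overlap either. In bulk samples, a larger share of placode cells and more RNA per placode cell cannot be told apart.

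Shh, the Hedgehog ligand of the placode (ENSMUSG00000002633; GRCm38 chromosome 5, 28456815 to 28467256, read from the minus strand), measured 83.4, 89.0, 88.2 and 90.0 CPM in 11-5-2, 17-5, 18-5 and 1-6-3. In 27-7-2, 27-7-3 and 27-7-4 it stood at 136, 134 and 125 CPM. The gap between the groups was thus wider than the spread within either, 131 ± 6.02 (SD, n = 3) against 87.7 ± 2.92 CPM (SD, n = 4). On the log2 scale the 27-7 pools were higher by 0.58 ± 0.10 (± gives an approximate SE; edgeR adjusted p = 0.363), by 0.51 GC-centred and by 0.55 without 27-7-2. DESeq2 gave it an adjusted p of 0.000234, and the adjusted p over all alternatives ran from 0.000234 to 0.726. Annotated genes on the opposite strand, 9530036O11Rik and Gm26894, overlap Shh, so some reads could be theirs.

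Foxi3, a forkhead transcription factor of placodes (ENSMUSG00000055874; chromosome 6, 70956531 to 70961066, plus strand), was spread more widely. It stood at 212, 272, 263 and 340 CPM in the other codes and at 533, 440 and 347 CPM in 27-7-2, 27-7-3 and 27-7-4. The highest of the other codes, 1-6-3, thus came within a few percent of 27-7-4. The difference was 0.70 ± 0.17 in log2 units (edgeR adjusted p = 0.363), 0.46 GC-centred and 0.52 without 27-7-2. Cdh3, which encodes P-cadherin, ran from 651 to 786 CPM in the other codes and stood at 1113, 1021 and 820 CPM in the 27-7 pools (log2 0.48, GC-centred 0.40). Both genes had the same order among the 27-7 pools, with 27-7-2 the highest and 27-7-4 the lowest.

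Bmp2, a ligand that restrains neighbouring placodes, stood at 114, 142, 163 and 118 CPM in the other codes and at 191, 215 and 173 CPM in the 27-7 pools (log2 0.52, GC-centred 0.45). Dkk4, a secreted Wnt inhibitor and early placode marker, stood at 212, 208, 211 and 167 CPM against 241, 362 and 257 CPM (log2 0.52, GC-centred 0.45). For this pair 27-7-3 was the highest pool. Edar, the Eda receptor, lay between 175 and 194 CPM in the other codes and between 211 and 251 CPM in the 27-7 pools, a smaller gap (log2 0.30, GC-centred 0.23). Vdr, the vitamin D receptor gene, completed the 7 at only 1.56 to 3.73 CPM, with 27-7-4 at 2.33 and the nearest other pool at 2.32 CPM. It overlapped once GC-centred, and its log2 fold change was 0.42 with all pools and 0.15 without 27-7-2.

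Other placode genes overlapped. Lhx2, a LIM-homeodomain factor, ranged from 12.2 to 19.8 CPM in the other codes and from 17.9 to 22.6 CPM in 27-7 (log2 0.33). Sostdc1, a secreted BMP and Wnt antagonist, had a log2 fold change of -0.17. Sox9, a transcription factor of later follicle stem cells, stood at 102, 133, 116 and 155 CPM against 160, 101 and 161 CPM (log2 0.16, and 0.04 without 27-7-2), with 27-7-3 the lowest of all 7 pools. Madcam1 itself, given only as a check of the sort, was 37.2 to 40.5 CPM in the other codes and 53.7 to 67.1 CPM in the 27-7 pools (log2 0.63, GC-centred 0.39). The level of the sorted antigen's transcript therefore moved with the group. Whether the sort differed was not tested.

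**Figure D2:**
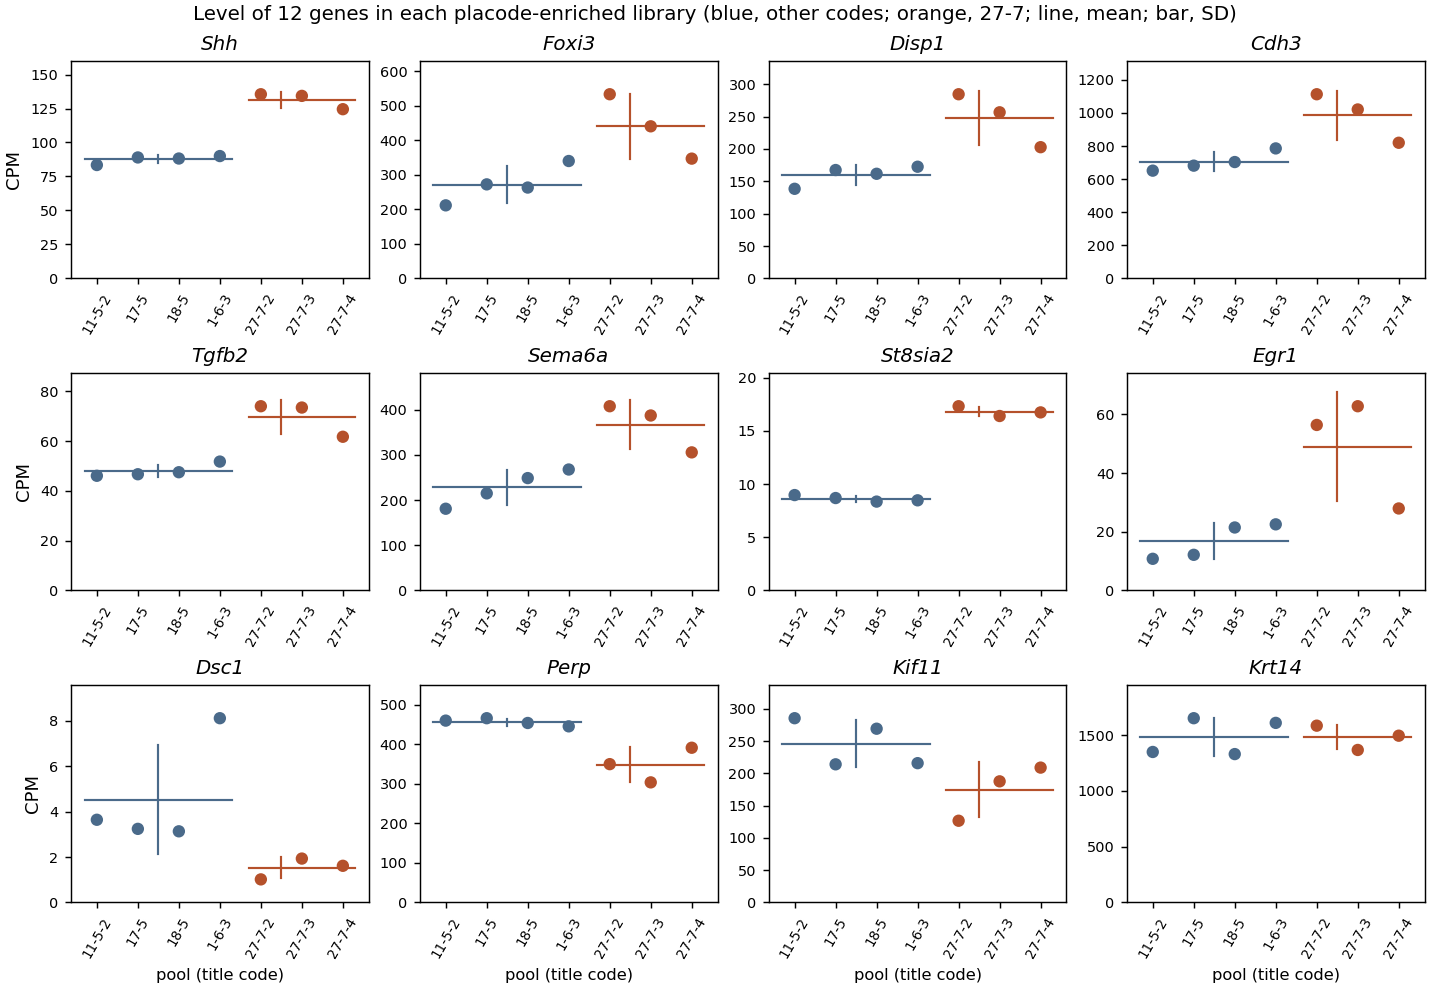
CPM (y axis, from 0) of 12 genes in each of the 7 placode-enriched libraries (x axis), with the mean and SD of each group. Shh and St8sia2 form 2 tight levels, Foxi3, Disp1, Cdh3 and Sema6a step down from 27-7-2 to 27-7-4, and Krt14 overlaps.

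Of 17 tested members of the Hedgehog pathway, 4 were non-overlapping and higher (Shh, Disp1, Gli3 and Boc) and 1 lower (Gas1). Over all genes these shares were 5.16% and 4.1%. Once GC-centred, 2 members were non-overlapping and higher and 3 lower, and the median of 0.20 became 0.02. Disp1, which releases the lipid-modified ligand from cells, stood at 139, 167, 162 and 173 CPM in the other codes and at 285, 257 and 203 CPM in the 27-7 pools. Disp1 was thus higher by 0.63 ± 0.14 in log2 units (edgeR adjusted p = 0.363) and by 0.45 GC-centred, and DESeq2 called it with and without its filter. Scube1, whose product is related to proteins that help release Hedgehog ligands, ran from 158 to 192 CPM in the other codes and from 205 to 305 CPM in 27-7 (log2 0.64, GC-centred 0.42). Scube1 lies outside this list and was named after its values were seen. Transcripts used as readouts of signalling did not separate. Ptch1, the receptor and a direct target, stood at 254, 296, 317 and 399 CPM against 301, 253 and 356 CPM (log2 -0.06). Gli1, another direct target, stood at 124, 191, 155 and 223 CPM against 251, 192 and 216 CPM (log2 0.34, GC-centred 0.12).

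The co-receptor genes went in different directions. Boc was 91.5 to 113 CPM in the other codes and 115 to 123 CPM in the 27-7 pools, a difference that vanished after GC centring (log2 0.20 and 0.02). Gas1 was lower in the 27-7 pools, at 209, 187 and 223 CPM against 261, 242, 241 and 301 CPM (log2 -0.34, GC-centred -0.56). Gli3, a transcription factor of the pathway, had a log2 fold change of 0.30 and overlapped once GC-centred.

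Wnt/beta-catenin targets and feedback genes had the largest median of the signalling lists. Of 21 tested, 6 were non-overlapping and higher (Apcdd1, Dkk4, Nkd1, Rnf43, Tcf7 and Znrf3) and 1 lower (Bambi), and the median log2 fold change was 0.40 (0.35 GC-centred, 0.31 to 0.46 leaving out each pool in turn). Dkk4 belongs to the placode list too, so the lists are not independent. Tcf7, a transcriptional partner of beta-catenin, stood at 44.2, 39.0, 46.0 and 52.8 CPM in the other codes and at 56.5, 85.0 and 60.1 CPM in the 27-7 pools. The difference was 0.56 ± 0.16 in log2 units (edgeR adjusted p = 0.363) and 0.49 GC-centred. Rnf43 and Znrf3, sister ubiquitin ligases that remove Wnt receptors from the cell surface, had log2 fold changes of 0.60 (GC-centred 0.42) and 0.42 (0.35). Rnf43 stood at 81.8, 115, 103 and 123 CPM in the other codes and at 190, 155 and 134 CPM in 27-7. Apcdd1, a membrane inhibitor of Wnt signalling, was 147 to 194 CPM against 217 to 235 CPM (log2 0.40, GC-centred 0.43).

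Axin2 and Lef1, which are widely used as readouts of Wnt signalling, overlapped. Axin2 stood at 120, 147, 157 and 170 CPM in the other codes and at 241, 196 and 152 CPM in the 27-7 pools, so 27-7-4 fell inside the range of the others. Without 27-7-2 its log2 fold change was 0.22, and GC-centred 0.23, against 0.40 with all pools as deposited. Lef1 stood at 604, 691, 699 and 978 CPM against 1310, 1118 and 919 CPM (log2 0.59, GC-centred 0.67), with 1-6-3 above 27-7-4. Sp5 and Myc, targets with wide ranges, overlapped as well. Sp5 had a log2 fold change of 0.82 (GC-centred 0.53, and 0.46 without 27-7-2) and Myc one of 0.57 (GC-centred 0.47, and 0.34 without 27-7-2). Bambi, a pseudoreceptor that blunts BMP and TGF-beta signals, was low in all 7 pools and lower in the 27-7 ones, at 1.74 to 2.74 CPM against 2.91 to 4.48 CPM, and overlapped once GC-centred. Among 15 Wnt ligands 0 were non-overlapping and higher and 1 was lower (Wnt2b, log2 -0.30, GC-centred -0.51). Once GC-centred, 4 of the 15 were non-overlapping and lower and 0 higher, beside 4.98% lower over all genes. Their median of 0.04 turned to -0.12 after GC centring and to -0.01 with library size only.

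Ligands of the TGF-beta superfamily included 3 on the higher side. Tgfb2 (ENSMUSG00000039239; chromosome 1, 186622792 to 186705989, read from the minus strand) measured 46.1, 46.7, 47.5 and 51.8 CPM in the other codes and at 74.0, 73.5 and 61.7 CPM in 27-7. The groups stood well apart, by 0.54 ± 0.12 in log2 units (edgeR adjusted p = 0.363), and GC centring moved it to 0.60 rather than toward 0. Bmp7 was 349 to 410 CPM against 412 to 502 CPM, a gap of a few CPM between 1-6-3 and 27-7-4 (log2 0.32, GC-centred 0.15). The whole list of 29 BMP and TGF-beta genes had 4 higher members (these 3 ligands and Tgfbi), 1 lower member (Bambi) and a median of 0.07.

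Feedback inhibitors of the FGF and ERK pathway held the non-overlapping members of that list, 3 higher of 22 tested and 0 lower. Over all genes these shares were 5.16% and 4.1%. Once GC-centred, 3 were higher and 1 lower, and the median was 0.15 (0.10 GC-centred). Spry4 was 15.03 to 18.95 CPM in the other codes and 21.26 to 25.35 CPM in the 27-7 pools (log2 0.46, GC-centred 0.39). Spred3 (log2 0.42, GC-centred 0.25) and Spry1 (log2 0.30, GC-centred 0.10) had smaller differences, and Spry1 overlapped once GC-centred. Phlda1 lies outside this list and was named after its values were seen. Its expression is known to follow ERK activity in several cell types. Phlda1 stood at 81.5, 92.4, 82.9 and 94.1 CPM against 146, 130 and 125 CPM. It was higher by 0.61 ± 0.11 in log2 units (edgeR adjusted p = 0.363) and by 0.37 GC-centred.

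Among the Eda and NF-kB genes, 2 of 21 were non-overlapping and higher, Edar and Nfkb2, and 0 lower. The share of higher genes was 5.16% over all genes and 8.29% in the GC bin of the list's median. The list's median of 0.08 became -0.01 after GC centring. Nfkb2, which encodes the p100 subunit of the noncanonical pathway, was 51.5 to 59.5 CPM in the other codes and 103, 77.7 and 65.8 CPM in the 27-7 pools (log2 0.56, GC-centred 0.30). The difference was 0.36 without 27-7-2, which had the highest level. Map3k14, the kinase that starts p100 processing, had low levels, 6.63 to 9.19 CPM against 11.6 to 16.6 CPM (log2 0.80, GC-centred 0.54). Map3k14 lies outside this list and was named after its values were seen. The Notch list had a median of 0.31 (0.11 GC-centred) but only 1 non-overlapping member of 16, Maml1, which overlapped once GC-centred. Notch1 overlapped at 390 to 724 CPM against 592 to 964 CPM (log2 0.51, GC-centred 0.30, and 0.28 without 27-7-2).

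Of 45 genes of the semaphorin, plexin, ephrin, slit and netrin families, 5 were non-overlapping and higher (Sema6a, Ntn1, Ephb2, Efnb2 and Robo1) and 1 lower (Unc5c), with a median of 0.17 (0.06 GC-centred), a count near the 9.84% of its GC bin. Robo1 and Unc5c overlapped once GC-centred, and Ephb2 had a log2 fold change of 0.42 (GC-centred 0.25, and 0.28 without 27-7-2). Sema6a, a transmembrane semaphorin, stood at 181, 215, 248 and 267 CPM in the other codes and at 408, 387 and 305 CPM in the 27-7 pools. The log2 difference of 0.69 ± 0.15 (edgeR adjusted p = 0.363) was also 0.69 GC-centred. Ntn1, a secreted netrin, was 9.05 to 10.2 CPM against 22.3, 17.9 and 11.5 CPM (log2 0.87, GC-centred 0.64), so 27-7-4 lay close to the other codes. Of 31 basement membrane and matrix genes, 4 were non-overlapping and higher (Fn1, Frem1, Frem2 and Lamc1) and 0 lower, with a median of 0.21 (0.12 GC-centred), and Lamc1 overlapped once GC-centred. Fn1, which encodes fibronectin, stood at 418, 563, 624 and 522 CPM against 698, 760 and 697 CPM (log2 0.43), and overlapped once GC-centred (0.29). Lrp4, a co-receptor that modulates Wnt and BMP signals, was 444 to 537 CPM in the other codes and 603 to 833 CPM in 27-7 (log2 0.58, GC-centred 0.41). Col27a1, a fibrillar collagen gene, had a log2 fold change of 0.74 (GC-centred 0.50). Lrp4 and Col27a1 lie outside both lists and were named after their values were seen.

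Suprabasal genes leaned to the lower side, although most of them overlapped. Of 25 suprabasal genes tested, 0 were non-overlapping and higher and 3 lower (Dsc1, Elovl4 and Sdr16c6), 18 had a log2 fold change below 0 and 7 above, and the median was -0.27 (-0.24 GC-centred). Over all genes, 4.1% were non-overlapping and lower. Once GC-centred, 2 of the 25 were non-overlapping and lower and 0 higher, beside 4.98% lower over all genes. Of 7 cornified envelope genes, 0 were non-overlapping. Leaving out 1-6-3 brought the suprabasal median to -0.09, the nearest to 0 when each of the 7 pools was left out in turn. Dsc1, a desmosomal cadherin of suprabasal cells, stood at 3.64, 3.24, 3.14 and 8.12 CPM in the other codes and at 1.01, 1.93 and 1.61 CPM in 27-7. The log2 fold change was -1.58 ± 0.42 (edgeR adjusted p = 0.363) and -1.43 GC-centred, and the IFE libraries held 46.5 to 79.9 CPM. Elovl4, an enzyme that elongates the lipids of the barrier, was 7.21 to 10.7 CPM against 4.69 to 6.09 CPM (log2 -0.80), and overlapped once GC-centred (-0.63). Krt1 stood at 51.4, 74.5, 59.1 and 95.4 CPM against 44.9, 35.7 and 53.5 CPM (log2 -0.65), and 27-7-4 overlapped the lowest of the others. Krt10 also overlapped, at 86.1 to 184 CPM against 73.5 to 104 CPM (log2 -0.41), as did Abca12, a lipid transporter of the barrier (log2 -0.60), and Hopx (log2 -0.64). The summed suprabasal level was 519 to 975 CPM in the other codes and 535 to 711 CPM in 27-7, so these sums overlapped, with 1-6-3 the highest and 11-5-2 the lowest. Both levels lay far under the 4731 to 6875 CPM of the IFE libraries, so a small share of IFE cells in the sorted fraction could not be told from expression in placode cells.

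Perp, a desmosome-associated membrane protein and p63 target kept in the periderm list, differed at a high level. It stood at 460, 466, 454 and 445 CPM in the other codes and at 350, 304 and 391 CPM in the 27-7 pools (log2 -0.39 ± 0.12; edgeR adjusted p = 0.363; GC-centred -0.35). It was the non-overlapping 1 of 13 periderm genes, whose median was -0.08. Basal keratinocyte genes did not lean: of 21 tested, 1 was higher, 0 lower, and the median was 0.02 (-0.08 GC-centred). Krt5 stood at 1992 ± 272 and 1914 ± 240 CPM (SD, n = 4 and 3; log2 -0.06), and Krt14 at 1486 ± 169 and 1483 ± 109 CPM (log2 0.00). These signs flipped between settings. Tfap2a, an AP-2 transcription factor of surface ectoderm, was the 1 higher member, at 395, 470, 431 and 589 CPM against 764, 653 and 590 CPM, where 27-7-4 barely exceeded 1-6-3, and overlapped once GC-centred.

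**Figure D3:**
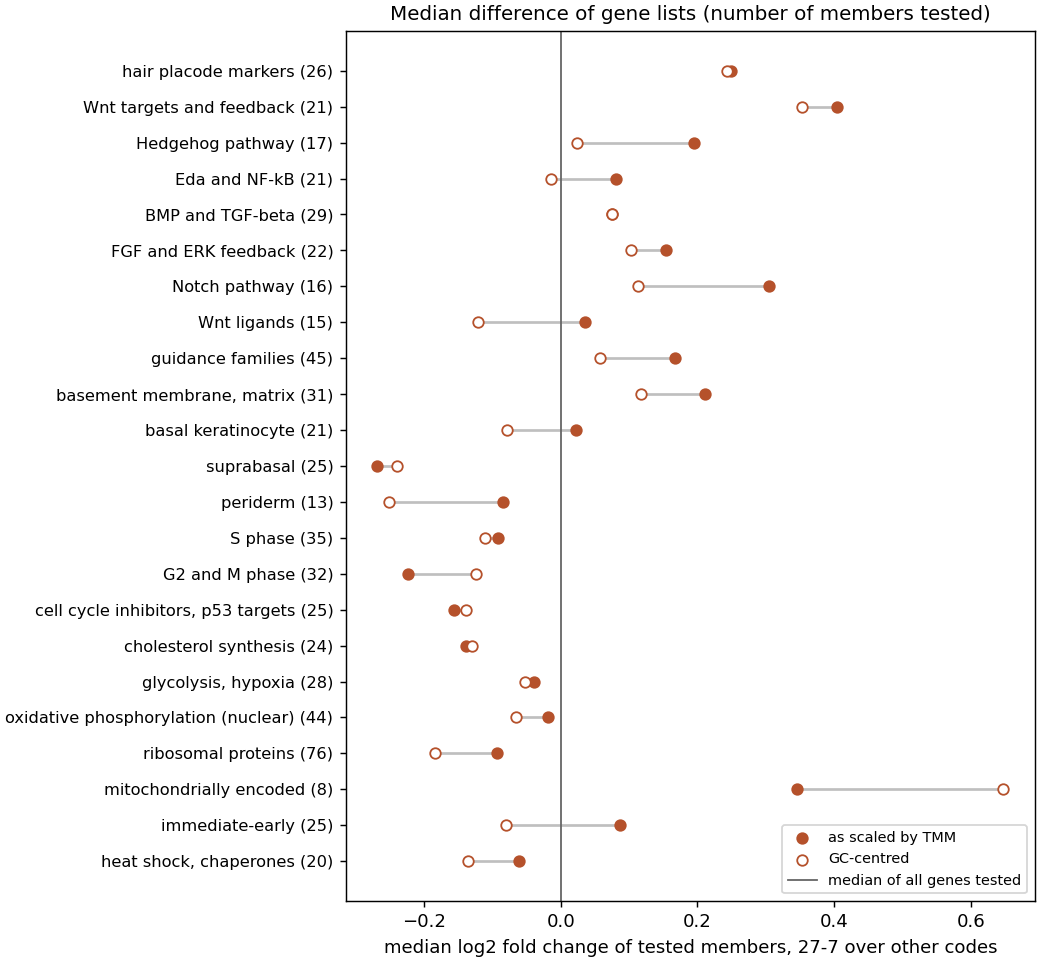
Median log2 fold change (x axis, 27-7 over other codes) of the tested members of 23 gene lists, before (filled) and after (open) GC centring, with the median of all genes as a line. Lists right of the line under both include Wnt targets and placode markers, and also mitochondrially encoded, Notch and matrix genes. Lists left of it under both include suprabasal and G2 and M phase genes, and also cholesterol synthesis, ribosomal protein and cell cycle inhibitor genes.

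Genes of G2 and M phase were lower in part. Of 32 tested, 0 were non-overlapping and higher and 7 lower (Birc5, Cenpf, Kif11, Kif20a, Kif2c, Kif4 and Ndc80), with a median of -0.22 (-0.12 GC-centred). After GC centring 7 were lower again, but Kif11 and Ndc80 overlapped and other members took their place, Hmmr among them. Kif11, a spindle motor, stood at 286, 214, 269 and 216 CPM in the other codes and at 127, 188 and 209 CPM in 27-7. Pool 27-7-2 was by far the lowest, and the log2 fold change of -0.50 became -0.32 without it and -0.30, with overlap, GC-centred. Birc5 had a log2 fold change of -0.24, and -0.15 without 27-7-2. Cenpf, a kinetochore protein gene, was 401 to 485 CPM against 306 to 398 CPM (log2 -0.33, GC-centred -0.16). Kif2c, a microtubule depolymerase gene, was 78.7 to 92.7 CPM against 64.5 to 74.6 CPM and kept its size after GC centring (log2 -0.29 and -0.31). Hmmr, a spindle-associated gene, overlapped before GC centring and did not after it (log2 -0.55 and -0.35). Mki67, the proliferation marker, overlapped at 2158 to 2430 CPM against 1956 to 2328 CPM (log2 -0.06, and 0.02 GC-centred). In the S phase list 2 of 35 were lower (Mcm6 and Gins3) and 0 higher, beside 4.1% lower over all genes, with a median of -0.09. Once GC-centred, 5 of the 35 were non-overlapping and lower, beside 4.98% of all genes. Gadd45g, a growth arrest and stress gene, was 16.9 to 28.6 CPM in the other codes and 32.6 to 44.8 CPM in 27-7 (log2 0.82). It overlapped once GC-centred (0.59). Of 25 cell cycle inhibitors and p53 targets, 1 was higher (Gadd45g) and 1 lower (Pmaip1), beside 5.16% and 4.1% over all genes. That list's median was -0.16 (-0.14 GC-centred), with 18 members below 0 and 7 above. Once GC-centred, 0 were non-overlapping and higher and 3 lower, beside 4.98% lower over all genes.

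Cytosolic ribosomal protein genes included 9 non-overlapping lower members of 76 and 0 higher, beside 4.1% and 5.16% over all genes. Their median was -0.09 (-0.18 GC-centred, with 13 lower and 1 higher). Rpl10 stood at 695, 563, 642 and 470 CPM in the other codes and at 310, 423 and 421 CPM in 27-7 (log2 -0.62, GC-centred -0.55). Rps4x, also X-linked, had a log2 fold change of -0.63, Rpl13 one of -0.47 and Rplp0 one of -0.42, and Rpl13 and Rplp0 were non-overlapping and lower in IFE too (log2 -0.60 and -0.38). Ribosomal protein genes have many processed pseudogenes, among which reads can be split, so their values are uncertain. Their sum did not separate the groups (50220 to 55140 CPM in 27-7 and 51170 to 64390 CPM in the others). Of 24 genes of cholesterol synthesis, 4 were lower (Hmgcs1, Msmo1, Sc5d and Stard4) and 1 higher (Tm7sf2), or 2 and 1 once GC-centred. The median was -0.14, and 4.1% of all genes were lower. Hmgcs1, Sc5d and Stard4 overlapped once GC-centred. Msmo1, a sterol methyl oxidase, was 30.4 to 41.3 CPM against 15.1, 28.1 and 29.0 CPM (log2 -0.63 and -0.39 without 27-7-2). Mitochondrially encoded protein genes had a median of 0.35 (0.65 GC-centred), and mt-Nd6 was the 1 of 8 that was non-overlapping (log2 0.45). Once GC-centred, mt-Nd6 overlapped and 3 of the 8 were non-overlapping and higher, beside 5.2% of all genes. The large ribosomal RNA of the organelle, mt-Rnr2, was 4173 to 5681 CPM against 6386 to 7672 CPM (log2 0.47, GC-centred 0.78).

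Early-response genes were mixed. Of 25 tested, 2 were non-overlapping and higher (Egr1 and Rhob) and 1 lower (Klf6), beside 5.16% and 4.1% over all genes. The list's GC bin held 9.84% higher genes. The median of 0.09 became -0.08 GC-centred. Egr1, a transcription factor induced by ERK signalling and also by tissue dissociation, stood at 10.8, 12.1, 21.4 and 22.5 CPM in the other codes and at 56.4, 62.8 and 27.9 CPM in 27-7. It had the largest fold of these genes, 1.54 ± 0.30 on the log2 scale (edgeR adjusted p = 0.363; GC-centred 1.32), although 27-7-4 lay nearer to 1-6-3 than to the other 27-7 pools. Klf6 differed the other way, 28.8 to 31.1 CPM against 22.7 to 27.03 CPM (log2 -0.30), and overlapped once GC-centred (-0.09). The summed level of the list overlapped, 728 to 1071 CPM in the other codes and 874 to 1269 CPM in 27-7. Heat shock and chaperone genes had 1 higher (Hsp90ab1, which overlapped once GC-centred) and 1 lower member of 20, with Hsp90aa1 at 258 to 386 CPM against 185 to 245 CPM (log2 -0.52).

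Beyond the lists, the non-overlapping genes of largest fold were modest in level. St8sia2, a sialyltransferase that makes polysialic acid (ENSMUSG00000025789; chromosome 7, 73939119 to 74013690, minus strand), stood at 8.97, 8.69, 8.35 and 8.47 CPM in the other codes and at 17.3, 16.4 and 16.7 CPM in the 27-7 pools. It formed 2 tight levels with a 1.95-fold difference of means and the smallest p of all genes (log2 0.96 ± 0.16; edgeR adjusted p = 0.363; GC-centred 0.94). Slc8a2, a sodium-calcium exchanger gene, was 10.1 to 11.6 CPM against 16.5 to 19.9 CPM (log2 0.74, GC-centred 0.51). Dmpk, a muscle-associated protein kinase gene, was 9.70 to 16.2 CPM against 21.6 to 26.8 CPM (log2 0.99, GC-centred 0.78), and Clip3, a cytoplasmic linker protein gene, 35.6 to 48.0 CPM against 53.9 to 82.3 CPM (log2 0.79, GC-centred 0.62). Syn3, a synapsin gene (log2 0.88), Begain (0.77) and Phpt1, a histidine phosphatase gene (1.04), were non-overlapping at 20.5 CPM or less in every pool, and 1-6-3 came close to 27-7-4 in Begain (14.7 and 14.9 CPM). Mapk4, an atypical MAP kinase gene, was 81.1 to 97.0 CPM against 117 to 150 CPM (log2 0.62, GC-centred 0.52). Runx2, a Runt-family transcription factor gene, was 23.6 to 30.9 CPM against 35.5 to 49.0 CPM (log2 0.71, GC-centred 0.69). The mitochondrial transfer RNA mt-Tm was 4.96 to 6.29 CPM against 8.64 to 14.53 CPM (log2 1.16, GC-centred 1.25).

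Among the lower genes, Ppp1r14c, a phosphatase inhibitor gene (ENSMUSG00000040653; chromosome 10, 3366057 to 3464975, plus strand), stood at 22.1, 24.4, 26.9 and 20.9 CPM in the other codes and at 14.4, 13.2 and 13.1 CPM in the 27-7 pools. Its log2 fold change of -0.80 ± 0.15 (edgeR adjusted p = 0.363) was also -0.80 GC-centred. Sumo2, which encodes a small ubiquitin-like modifier and has processed copies that can share reads, was 8.44 to 16.3 CPM against 4.16 to 7.20 CPM (log2 -1.29). Pex2, a peroxisome biogenesis gene, was 20.5 to 38.7 CPM against 13.8 to 18.3 CPM (log2 -0.89), and G2e3, a ubiquitin ligase gene, 85.3 to 135 CPM against 45.4 to 80.6 CPM (log2 -0.73, GC-centred -0.46, and -0.54 without 27-7-2). In Sumo2, Pex2 and G2e3 the nearest other pool was 1-6-3. Clp1 (log2 -0.87), Fancl (-0.77, GC-centred -0.50), Ptp4a1 (-0.75, GC-centred -0.47), Itm2a (-0.73) and Ndfip1 (-0.71) completed the lower genes of largest fold, and Ptp4a1 overlapped once GC-centred. Slc7a11, the cystine transporter gene, was 3.52 to 7.13 CPM against 1.31 to 2.69 CPM (log2 -1.27). The IFE libraries held 69.1 to 105 CPM, so a small share of IFE cells in the sorted fraction could not be told apart. Slc7a11 belongs to the unfolded protein and integrated stress response list, with 2 of 29 lower (also Xbp1) and 0 higher. Over all genes 4.1% were lower. That list's median was -0.12 (-0.14 GC-centred), and 4 were lower once GC-centred, beside 4.98% of all genes.

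Markers of other cell types are given list by list, beside 5.16% higher and 4.1% lower over all genes. Of 8 melanoblast markers tested, 1 was non-overlapping and higher and 1 lower, and of 15 fibroblast markers 1 was lower. The endothelial (4 tested), immune (4) and mammary (6) lists each had 1 higher, and the remaining lists 0. Once GC-centred, the fibroblast and endothelial lists each had 1 lower, the mammary list 1 higher and the others 0. Summed levels were highest in the fibroblast and mammary lists. Summed melanoblast markers were 18.8 to 22.4 CPM in the 27-7 pools and 15.1 to 20.7 CPM in the others, with Sox10 higher and Ednrb lower, both overlapping once GC-centred, and the pigment genes Dct and Tyr under 1 CPM in every pool. Of the fibroblast and dermal condensate markers, Col1a2 was lower (24.9 to 26.3 CPM against 28.1 to 32.1 CPM), Twist1 and Prrx1 were at 0 in all 7 pools, and the summed level was 1501 to 1941 CPM against 1744 to 2194 CPM, carried by Dcn and Postn. Cd74, the invariant chain gene, was the 1 immune marker on the higher side, 40.3 to 47.9 CPM against 32.2 to 38.4 CPM (log2 0.32), and overlapped once GC-centred (0.12), while Ptprc, which marks leukocytes, was at 0 in the 27-7 pools and at most 0.36 CPM in the others. Summed immune markers, 49.4 to 56.1 CPM against 37.3 to 45.3 CPM, followed Cd74. Embryonic mammary markers summed to 845 to 1240 CPM against 677 to 894 CPM, mostly Gata3, which skin epithelium also expresses, and the mammary marker Tbx3 was at 0. Msx2 was the 1 non-overlapping mammary marker, at 15.49 to 20.75 CPM in 27-7 against 13.33 to 15.21 CPM (log2 0.33). Endothelial, erythroid, muscle and Merkel cell lists had sums of at most 25.4 CPM in any pool, and Schwann cell and neuron markers 83.8 to 112 CPM, mostly Erbb3, which epithelium also expresses. The part of these markers in the results above was not tested.

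Over all genes, the same contrast in the IFE cells of these pools gave fewer separated genes. Of 15813 genes tested, 0 passed the adjusted threshold (edgeR, smallest adjusted p = 0.68; 447 higher and 366 lower at an unadjusted p under 0.05), and 633 were non-overlapping and higher (4%) and 424 lower (2.68%). Of 783 non-overlapping higher genes of the placode-enriched fraction that were tested in IFE, 108 (13.8%) were also non-overlapping and higher there, which is 17.8% of the 608 such IFE genes tested in the placode-enriched fraction. On the lower side 30 of 632 (4.75%) were shared, which is 7.56% of 397, and 12 genes were separated in opposite directions. Across 9378 genes the log2 fold changes of both fractions correlated with Pearson r = 0.47 (0.50 GC-centred). This is a description across genes, and both fractions come from the same 7 pools of embryos. Bmp2 (log2 0.45), Edar (0.37) and Fn1 (0.34) were non-overlapping and higher in IFE as well. Lists varied. In IFE 6 of 30 matrix genes and 3 of 21 Eda and NF-kB genes were higher, against 4 of 31 and 2 of 21 in the placode-enriched fraction. Ribosomal protein genes had 12 lower of 76 in IFE (median -0.20), against 9 (median -0.09). Fewer separated elsewhere, with 2 of 26 placode markers and 2 of 20 Wnt targets higher and 0 of 26 suprabasal genes lower in IFE. St8sia2 lay between 2.37 and 3.54 CPM in IFE with overlap (log2 0.08).

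A test of whether the 27-7 difference depended on the fraction, with the pool as a block, called 0 of 17046 genes (edgeR, smallest adjusted p = 0.927; 249 higher and 312 lower at an unadjusted p under 0.05). Without the pair of 27-7-4 libraries 1425 genes had an unadjusted p under 0.05, and without the pair of 27-7-2 libraries 278. For Shh the interaction was 0.14 ± 0.33 on the log2 scale, for St8sia2 0.88 ± 0.29 and for Egr1 0.72 (edgeR adjusted p = 0.969, 0.927 and 0.927). In Sdr16c6, Dsc1 and Sumo2 the IFE log2 fold changes were -0.17, -0.41 and -0.69, with overlap. Spry4 and Slc8a2 had the opposite sign in IFE (-0.33 and -0.21), again with overlap.

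**Figure D4:**
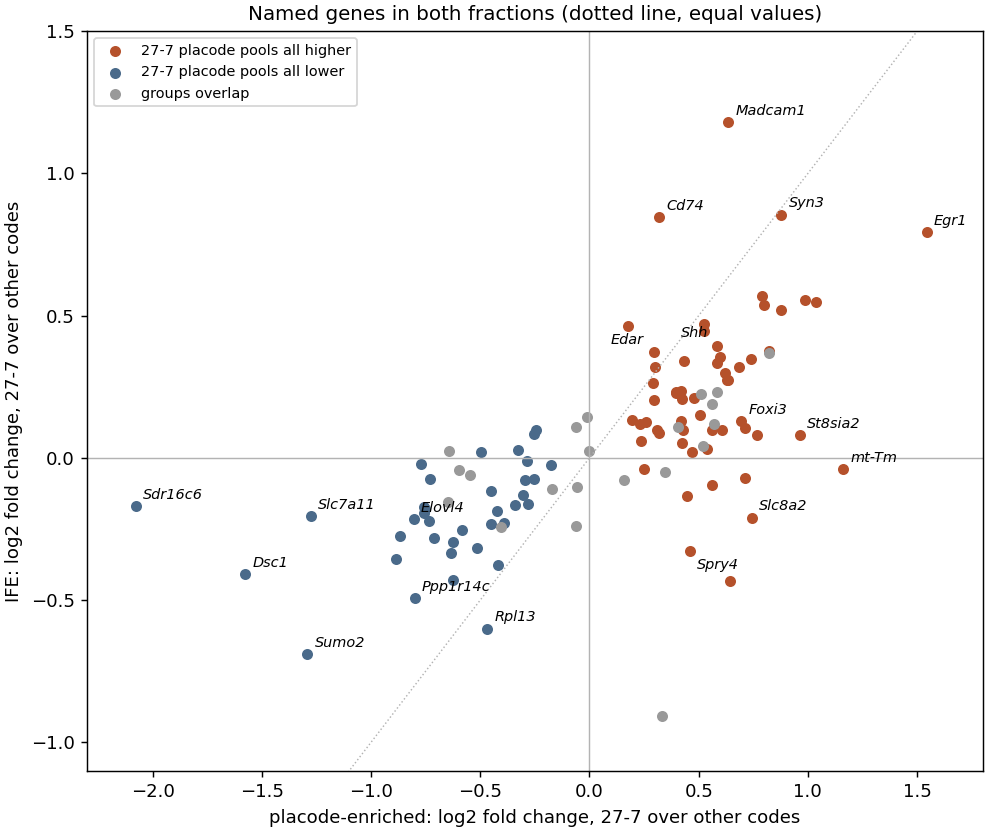
Log2 fold change of 27-7 over other codes in the placode-enriched fraction (x axis) and in IFE (y axis) for 115 of the genes described, coloured by whether the placode-enriched groups overlap. Most points have the same sign in both fractions and a smaller difference in IFE, with Madcam1 and Cd74, low in IFE, among the exceptions.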

How the data were processed

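RNA-seq was run on 14 libraries, 7 pools each sorted into MAdCAM-1 positive and negative cells, and the values analysed are raw counts per gene as deposited by the authors. STAR (version listed as 1.5) and HTSeq are among the tools named in the submitters' processing notes, next to Trimmomatic, bcl2fastq 2.17.1.14, MultiQC and FastQC, with the builds GRCm38 and mm10. Libraries were made with the Ovation SoLo kit from total RNA, per the labels' protocols. For the annotation release, the strand setting and duplicate reads, the choice was not given in the sources used here. If strand was ignored, a gene and one overlapping it on the other strand share reads, as 30 of 115 genes described could.

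The table held 26252 genes, of which 25949 matched GENCODE M21 (GRCm38) for coordinates, transcript length and GC content; the 303 unmatched held 0.436% of the counts. After edgeR's filter removed 10433 genes, groups were compared with the quasi-likelihood test of edgeR 4.0.16 in R 4.3.3, with TMM scaling, Benjamini-Hochberg adjustment and a threshold of 0.05. The prior count was 0.125 for fold changes and 2 for log CPM, and SEs are approximate, from the F statistic. The interaction was fitted with the pool as a block, since both fractions of a pool come from the same embryos. For GC centring, genes with a mean log2 CPM above 3 set 20 bins. Limma 3.58.1, DESeq2 1.42.0, other scalings, filters and covariates, and leaving out each pool were alternatives. The code was tested on simulated data. Tables and figures used Python 3.11.15, pandas 2.3.3, numpy 2.4.6 and matplotlib 3.10.9.

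The 44 gene lists (1053 genes, 1009 in the table) and the pools compared were chosen with earlier results of these data known. The rule for naming genes took those passing the adjusted threshold, which gave 0, the member of each list with the smallest p (1 of these is not reported here), and Madcam1, Shh, Edar, Krt1, Krt10, Krt5, Krt14, Mki67, Axin2, Lef1, Sox9, Xist and the Y-linked genes whatever their result. Named later, after their values were seen, were non-overlapping list members, genes called by DESeq2, and non-overlapping genes with an unadjusted p under 0.05 and extreme fold changes, averaging 10 CPM or more in the higher group. A chi-square of at least 21 per gene between any pair of libraries gave no sign of a duplicated library.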

Additional observations from a re-analysis of the deposited data

Results flagged for a closer look

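In 8 of 160 results examined, 1 of the 4 pools of other codes stood apart from the other 3 by Dixon's criterion for gap over range. Chance marks about 1 group in 20 this way. Pool 1-6-3 was the one apart in 5 of them. Its Dkk4 level was 166.5 CPM, below 208.2 to 211.6 CPM in the other 3 pools. Its Dsc1 level was 8.123 CPM, above 3.135 to 3.644 CPM, and its Ntn1 level 10.22 CPM, above 9.048 to 9.208 CPM. Its summed early-response genes reached 1071 CPM, above 728 to 784.2 CPM, and its summed mammary markers 893.6 CPM, above 677.3 to 706.6 CPM. Pool 11-5-2 was apart in Kif2c, at 92.65 CPM above 78.7 to 80.59 CPM, and in summed immune markers, at 37.3 CPM below 44.87 to 45.34 CPM. Pool 18-5 was apart in Vdr, at 1.558 CPM below 2.211 to 2.322 CPM.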

How the results depend on the processing

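The count of 0 genes at an adjusted p under 0.05 was also found with every other scaling, filter, covariate and fit run, except DESeq2, which called 93 higher and 15 lower, or 20 higher and 8 lower without independent filtering; the cause was not tested. Leaving out 1 pool gave 0 higher and 0 to 1 lower genes, the 1 being Mir301 without 1-6-3. In IFE it gave 0 to 1 higher (1 without 27-7-4) and 0 to 3 lower (3 without 18-5 and 3 without 27-7-4). The interaction called 0 genes with the pool as a block and 0 without the block (630 at an unadjusted p under 0.05, against 561). Of 115 genes described, 110 kept their sign in all alternatives run. Signs turned in 5 genes whose groups overlapped, and the cause was not tested. Mki67 was 0.0157 GC-centred and ran from -0.1139 to 0.0068 leaving out each pool. Xist was 0.1101 with limma-voom, 0.3885 with sex-linked transcripts as a covariate and 0.1726 GC-centred, and ran from -0.2521 to 0.5018. Krt14 was 7e-04 with limma-voom, 0.0244 with that covariate and 0.0024 with all 14 libraries in the fit, and ran from -0.0621 to 0.0523. Krt5 ran from -0.1537 to 0.0378 and Ptch1 from -0.199 to 0.0697.

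The GC-centred fit, DESeq2 without independent filtering and the count of non-overlapping genes were chosen after seeing the data. With library size only, the unadjusted counts were 729 higher and 1175 lower. Leaving out each pool moved those counts between 420 and 1579 higher and between 456 and 1378 lower. Levels of a few CPM, as for Dsc1, Sdr16c6, Vdr and Bambi, rest on few counts.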

Other observations

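Counts of non-overlapping members in other gene groups are to be read beside 5.16% higher and 4.1% lower over all genes. Of 20 circadian clock genes 1 was non-overlapping and higher (Ciart, overlapping once GC-centred), 0 lower, and Per1 overlapped at 26.9 to 62.7 CPM in the other codes and 59.2 to 77.8 CPM in 27-7 (log2 0.56, GC-centred 0.34). Of 23 Hox genes 2 were higher (Hoxa6 and Hoxa7) and 0 lower, beside 5.16% higher over all genes, with a median log2 fold change of 0.18 (0.07 GC-centred). Hoxa6 overlapped once GC-centred. Hoxa7, a trunk Hox gene, was 161 to 188 CPM against 196 to 231 CPM (log2 0.25, GC-centred 0.14). Hoxb8 overlapped (log2 0.52, and 0.33 without 27-7-2). Of 20 interferon-stimulated genes 0 were higher and 1 lower, Ifit2, at 9.20 to 13.96 CPM against 5.14 to 8.34 CPM (log2 -0.76). Histone genes had a median of -0.16 (-0.39 GC-centred), with 1 of 52 non-overlapping. Once GC-centred, 6 of the 52 were non-overlapping and lower, beside 4.98% of all genes. Of 12 abundant nuclear long noncoding RNAs, 3 were non-overlapping and higher (Airn, Malat1 and Snhg11) and 0 lower. Once GC-centred, 3 of the 12 were higher, beside 5.2% of all genes. Their median was 0.04 (0.16 GC-centred), with 6 members above 0 and 6 below. Malat1 was 3049 to 3713 CPM in the other codes and 4007 to 4225 CPM in 27-7 (log2 0.24, GC-centred 0.46).

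In several lists not described member by member, the gene with the smallest p was the following, with its log2 fold change. Non-overlapping were the glycolytic regulator Pfkfb3 (0.46), the antisense RNA gene Airn (0.46) and the histone gene Hist1h4i (-0.56). The endothelial marker Plvap was non-overlapping too, at 0.426 CPM or more in the 27-7 pools and 0.389 CPM or less in the others, and overlapped once GC-centred. Overlapping were Rnu11 (0.68) of the structural RNAs, Pthlh (0.56) of the mammary markers, Zyx (0.47, GC-centred 0.24) of the YAP and actomyosin genes and Tchh (0.61) of the cornified envelope genes. Impact (-0.56, GC-centred -0.32) of the imprinted genes, Uqcrc2 (-0.47) of the nuclear respiratory chain genes, Gins1 (-0.40) of the S phase genes and Wnt2 (-1.57) of the Wnt ligands overlapped as well. So did Krt8 (0.58, GC-centred 0.37), Klf1 (-0.41, GC-centred -0.72) and Mylpf (-0.18) of the Merkel cell, erythroid and muscle markers.

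Among the 93 genes DESeq2 called higher, 60 had non-overlapping pools, and their median log2 fold change of 0.58 was 0.45 GC-centred. The median GC content of these genes was 54% and that of the 15 lower ones 43.7%.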
